A study of Mus musculus with 16 samples.

Results

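Genes of the hepatic lipid droplet were followed in the livers of control and mutant female mice fed chow or a high-fat diet (HFD). The set was defined by name as Cidea, Cidec, Plin2, Plin4, Plin5, Mogat1, Pparg, Cd36, G0s2 and Vldlr, genes that are commonly read when fat accumulates in liver. Of these 10 genes, 9 had a row among the 15544 gene identifiers of the table, and Cidea was not analysed here. All 9 passed the filter on low values and entered the test with 12704 genes in all.

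Hepatocytes store triglyceride in cytoplasmic droplets, a neutral lipid core under a single phospholipid layer that carries its own coat of proteins. Perilipins (Plin2, Plin4 and Plin5) coat the droplet and govern the access of lipases, Cidec enlarges droplets by moving lipid between them, and G0s2 inhibits the lipase Pnpla2 (ATGL). Mogat1 makes diacylglycerol for triglyceride synthesis, Cd36 takes up fatty acids, Vldlr binds triglyceride-rich lipoproteins, and Pparg is a nuclear receptor whose targets include several of the other genes. Most of these genes are known to be raised in fatty liver.

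Each of the 16 libraries came from the liver of a female aged 27 weeks. Control mice were Esr1 fl/fl, with both copies of the gene for oestrogen receptor alpha (ERα) floxed. Mutant mice, Esr1 Nkx2-1Cre, carried the same floxed alleles and a Cre recombinase under Nkx2-1, which deletes the receptor in part of the hypothalamus. Nkx2-1 is also active in thyroid and lung, and both genotypes were kept on a mixed CD-1;129P2 background. Within each genotype 4 mice were kept on chow and 4 were given HFD for 17 weeks. All values below are TPM (a share of the library's transcripts) adjusted by a size factor per library. TPM is scaled to transcript length, so that levels can be compared between genes. Such values keep no sequencing depth, which is therefore unknown, and how precise they are can be judged only from the spread within a group. Library totals lay between 905897 and 1119703. P-values rest only on the spread between libraries within groups, pooled over the 4 groups and adjusted towards a trend over all genes.

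The libraries held liver RNA by their markers. The 6 hepatocyte markers summed to between 55000 and 95200 in every library, and the 7 macrophage markers to between 92.4 and 442. Of 7 adipocyte markers 3 had a row, and Plin1, the perilipin that defines fat cells, was at 0.149 or below in every library. The remaining adipocyte markers with a row, Lipe and Fabp4, are also expressed in liver or in macrophages and brought that sum to between 13.5 and 22 in the 16 libraries. In bulk tissue, fewer cells of a type and less RNA per cell cannot be told apart.

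Positions are given on GRCm38 (mm10). Plin4 (chromosome 17, 56100591 to 56109803) and Plin5 (chromosome 17, 56111601 to 56117596) are neighbours on the minus strand, 1797 bases apart. Cidec (113424634 to 113435760, minus strand) and Pparg (115360951 to 115490399, plus strand) both lie on chromosome 6. Mogat1 (78510991 to 78538173, plus strand) and G0s2 (193272161 to 193273217, minus strand) both lie on chromosome 1. Plin2 is on chromosome 4 (86648386 to 86670060, minus strand), Cd36 on chromosome 5 (17781690 to 17888801, minus strand) and Vldlr on chromosome 19 (27216484 to 27254231, plus strand). All 9 are annotated as protein-coding genes. The kit did not mark strand, so reads in the 200 exon bases that Mogat1 shares with BC035947 on the opposite strand, and in the 17 that Plin4 shares with Hdgfl2, cannot be told apart. BC035947 had a median of 1.95 TPM (1.33 to 3.66), beside 2.89 for Mogat1. Hdgfl2 had a median of 17.9 (13.7 to 30.3), beside 0.99 for Plin4. How far the shared bases affect the levels of Mogat1 and Plin4 was not tested.

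The promoters were read for AGGTCA, the core motif that PPARγ and other nuclear receptors recognise, because Pparg is itself in the set. In the 250 bases before an annotated RefSeq start, on either strand, the core motif was present for 4 of the 9 genes (Plin2, Plin5, Cd36 and Pparg), against 15.8% of 27025 genes. Some genes have several starts, and by window it was in 5 of 14, against 14% of all 32851. The matches of Pparg lie within its own annotated exons. The full element, 2 such motifs in direct repeat spaced by 1 base (AGGTCANAGGTCA), was in none of the 14 windows of the set and in 0.0335% of all 32851 windows. With the third base of each motif left free (AGGNCANAGGNCA) it was again in none of the 14 windows, and in 0.338% of all. A match is a run of letters and not a measured binding site. The stretches around the match are shown for Plin2, Plin5 and Cd36, from RefSeq on GRCm38.p6, 5′ to 3′ on the minus strand that each gene is read from, with the match in capitals (TGACCT where it lies on the other strand). They cover chr4:86670245-86670304, chr17:56117686-56117745 and chr5:17836092-17836146.
Plin2: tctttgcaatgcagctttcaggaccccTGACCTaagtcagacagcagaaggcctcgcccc
Plin5: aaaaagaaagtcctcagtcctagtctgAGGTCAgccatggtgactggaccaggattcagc
Cd36: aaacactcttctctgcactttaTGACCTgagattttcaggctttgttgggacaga
The match begins 218 bases before the RefSeq start of Plin2, 170 before that of Plin5 and 228 before that of Cd36. The Cd36 stretch lies inside the gene span given above, so this RefSeq start is not at the outer end of that span. In the annotation that gave the positions, the bases after the RefSeq start were found in a transcript of Plin2, but not of Plin5 or Cd36.

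Among the 9 genes, Plin2 was the most abundant in every library, with a median of 242 TPM over the 16 libraries and a range of 174 to 396. G0s2 followed with a median of 85.9 (32.6 to 187), then Cd36 with 40.6 (28.1 to 64.7) and Plin5 with 19.7 (8.51 to 28.4). Cidec (7.95), Pparg (7.43) and Vldlr (6.28) lay close together, Mogat1 had a median of 2.89, and Plin4 was lowest at 0.99. Plin2 was above G0s2, Cd36 above Plin5, Plin5 above Cidec, and Vldlr above Mogat1 in 16 of 16 libraries. The order of Cidec and Pparg was not settled, with Cidec higher in 9 of 16 libraries, and Pparg was above Vldlr in 11 of 16. Plin2 was thus the leading perilipin transcript in all 4 groups, and Plin4 lay near the limit of the filter.

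**Figure D1:**
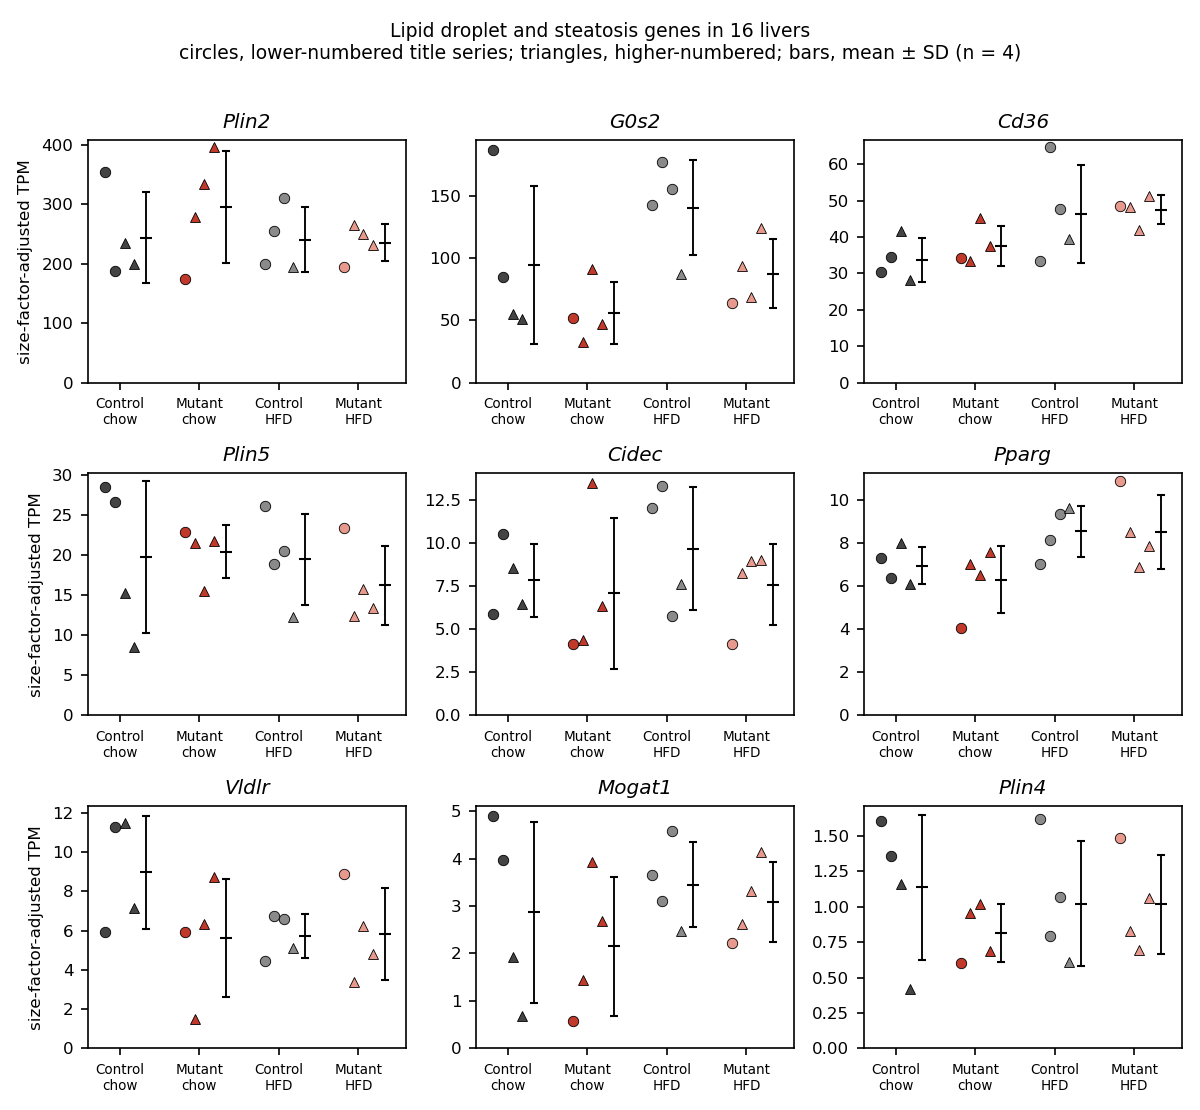
Levels of the 9 genes in 16 livers, in size-factor-adjusted TPM, with 1 point per library, 4 groups per panel and bars for the mean ± SD (n = 4). Circles and triangles mark the lower- and higher-numbered series of library titles within each diet. The groups overlap in every panel.

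The spread between mice of one group differed widely among the 9 genes. On the log2(value + 1) scale, the SD within groups was 0.606 for G0s2, 0.582 for Mogat1, 0.555 for Vldlr, 0.517 for Cidec and 0.492 for Plin5, against a median of 0.26 over all genes tested. These 5 genes were more variable than 88.7% to 93.9% of genes. Cd36 (0.26) and Pparg (0.244) varied as the median gene did. Between the highest and the lowest library, Mogat1 differed 8.58-fold, Vldlr 7.68-fold and G0s2 5.74-fold, whereas Cd36 differed 2.3-fold and Plin2 2.27-fold. The group means accounted for 46% of the variance of G0s2, 44% of that of Cd36 and 39.8% of that of Pparg, and for 7.87% of that of Plin5. With 4 libraries a group, such means take up part of the variance even where groups do not differ.

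The first comparison asked whether HFD changed the droplet genes, as the mean of the diet differences in both genotypes. No gene of the set passed the threshold (limma with Benjamini-Hochberg adjustment over all genes, adjusted p of 0.05), against 17 of 12704 genes, or 0.134%. Cd36, G0s2 and Pparg had the smallest p-values and were higher on HFD at an unadjusted p below 0.05, as were 6.82% of all genes, and 14.1% of all genes lay below it in either direction. The median log2 difference over the 9 genes was 0.20, with 6 above 0, beside a median of -0.01 over all genes and 46.7% above 0. The median of the 9 genes was 0.12 without mutant chow replicate 1 or control HFD replicate 2, 0.13 without mutant chow replicate 2, 0.30 without control HFD replicate 3 and 0.34 without mutant chow replicate 3. It was 0.02 without both mutant chow replicates 1 and 2, whose acute-phase transcripts are given with the genotypes.

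Cd36, the fatty acid translocase, had values of 30.5, 34.5, 41.7 and 28.1 in controls on chow and of 33.5, 64.7, 47.6 and 39.5 in controls on HFD. In mutants it was 34.1, 33.3, 45.3 and 37.6 on chow and 48.5, 48.2, 41.9 and 51.3 on HFD. Of the 8 HFD livers 6 lay above the median of all 16, and the diets overlapped in both genotypes. The diet difference was 0.38 on the log2(value + 1) scale (95% interval 0.11 to 0.64, a 1.3-fold higher level, limma adjusted p = 0.208). Without control HFD replicate 2, the highest library, it was 0.29 (limma adjusted p = 0.337).

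Pparg, the transcription factor of the set, was 6.94 ± 0.863 in controls and 6.3 ± 1.55 in mutants on chow (SD, n = 4). HFD livers held 8.54 ± 1.2 in the control and 8.52 ± 1.7 in the mutant group. The lowest value, 4.06, and the highest, 10.9, were both from mutants, on chow and on HFD. The difference of 0.33 (0.07 to 0.59, 1.26-fold for value + 1) had a limma adjusted p of 0.245. These are levels of the whole gene and do not separate the isoforms that start at its 3 annotated RefSeq starts.

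G0s2, the inhibitor of ATGL, had the largest diet difference of the 9 genes at 0.71 (0.13 to 1.29, 1.63-fold, limma adjusted p = 0.265). Controls on chow had 187, 84.8, 54.9 and 51, and controls on HFD 143, 177, 156 and 86.9. Mutants had 51.9, 32.6, 91.1 and 47.3 on chow, and 64.3, 93.7, 68.7 and 124 on HFD. A single control on chow was the highest of all 16 libraries, and the diets overlapped in both genotypes.

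The other 6 genes had diet differences between -0.20 and 0.41, none with an unadjusted p below 0.05. Mogat1 was 2.87 ± 1.92 and 2.15 ± 1.46 in controls and mutants on chow, and 3.45 ± 0.899 and 3.08 ± 0.84 on HFD (SD, n = 4). Its lowest 3 values, 0.57, 0.681 and 1.44, were all from chow livers, but so was its highest, 4.89. The difference was 0.41 (-0.16 to 0.97, limma adjusted p = 0.503), and it was 0.13 without mutant chow replicates 1 and 2, a pair described with the genotypes.

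The perilipins and Cidec differed little between diets. Plin2 was 244 ± 76.1 and 296 ± 94.1 in controls and mutants on chow, and 240 ± 54.7 and 235 ± 30.4 on HFD (SD, n = 4). Its difference was -0.14 with a 95% interval of -0.51 to 0.23, which holds no 2-fold change in either direction. The intervals of Plin5 (-0.13, from -0.61 to 0.34) and Plin4 (0.04, from -0.27 to 0.35) held none either. Cidec differed by 0.20 (-0.30 to 0.70). Vldlr, the lipoprotein receptor, differed by -0.20 (-0.73 to 0.34). Across the set, 8 of 9 intervals lay within 1 log2 unit of 0 on the log2(value + 1) scale, all but that of G0s2. So did 94.3% of intervals over all genes. For genes at low levels, such as Mogat1 and Plin4, a 2-fold change of the value itself is less than 1 unit on that scale.

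**Figure D2:**
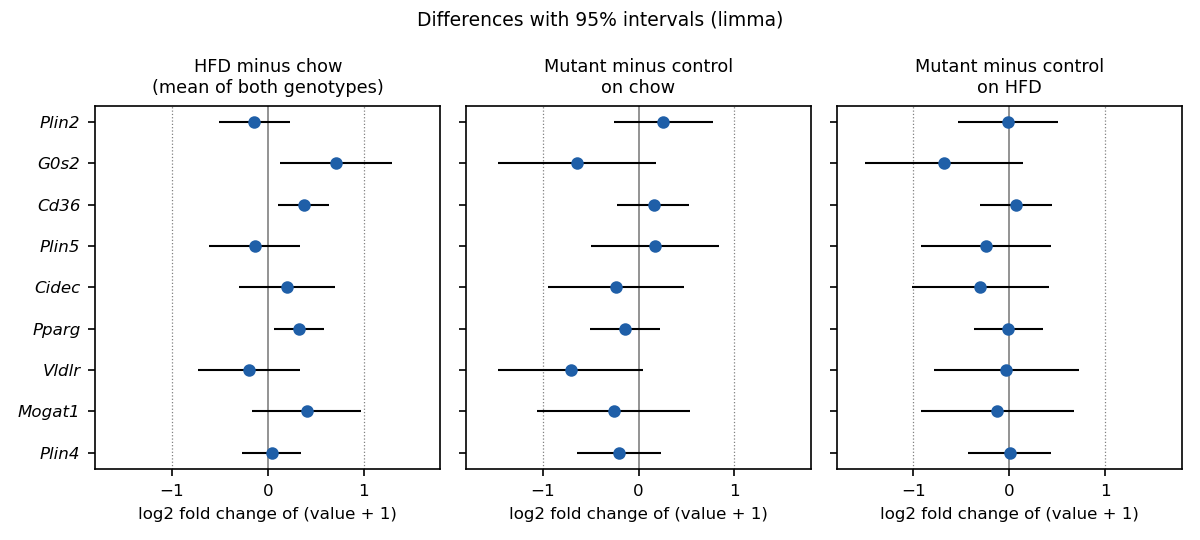
Differences of the 9 genes on the log2(value + 1) scale with 95% intervals from limma, for HFD minus chow and for mutant minus control on each diet. Dotted lines mark 1 log2 unit on this scale, a 2-fold change of value + 1. The intervals of Cd36, Pparg and G0s2 exclude 0 for diet before adjustment, and every interval includes 0 for genotype.

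Cd36, G0s2 and Pparg were then read within each genotype, with interaction estimates of -0.08 (-0.61 to 0.45), -0.04 (-1.19 to 1.12) and 0.13 (-0.38 to 0.65). In controls, where 0 of 12704 genes (0%) passed the threshold and 12.9% had an unadjusted p below 0.05, none of the 9 genes passed and only Cd36 had an unadjusted p below 0.05. Cd36 differed by 0.42 (0.05 to 0.80, limma adjusted p = 0.332), G0s2 by 0.73 (-0.09 to 1.55, limma adjusted p = 0.439) and Pparg by 0.26 (-0.10 to 0.63, limma adjusted p = 0.528). With limma's library weights, which gave control HFD replicate 4 a weight of 0.228, Cd36 passed with a difference of 0.56 (limma adjusted p = 0.0414), as did 2264 of all genes.

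In mutants 0 of 12704 genes (0%) passed and 6.86% had an unadjusted p below 0.05. None of the 9 genes passed, and only Pparg had an unadjusted p below 0.05. Pparg differed by 0.40 (0.03 to 0.76, limma adjusted p = 0.716), Cd36 by 0.34 (-0.04 to 0.71, limma adjusted p = 0.747) and G0s2 by 0.69 (-0.13 to 1.51, limma adjusted p = 0.763).

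The comparison of genotypes on chow asked whether loss of ERα in the brain altered the droplet genes of the liver. None of the 9 genes passed the threshold, against 3 of 12704 genes (0.0236%), and none had an unadjusted p below 0.05, as 6.08% of all genes did. Vldlr and G0s2 had the largest differences, both lower in mutants. Their median difference as a set was -0.20, with 3 of 9 genes above 0, beside 0.02 over all genes and 54.6% above 0. This median was 0.02 without mutant chow replicate 1, -0.10 without control chow replicate 1 or 2, and -0.30 without control chow replicate 4.

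Vldlr was 5.91, 11.3, 11.5 and 7.14 in controls and 5.91, 1.49, 6.32 and 8.74 in mutants. The groups overlapped, and mutant chow replicate 2 was the lowest of all 16 libraries. The difference was -0.70 (-1.46 to 0.05, limma adjusted p = 0.838), and -0.29 without that library. G0s2 differed by -0.64 (-1.46 to 0.18, limma adjusted p = 0.872). Without control chow replicate 1, which held 187, the G0s2 difference was -0.25. Plin2 pointed the other way at 0.26 (-0.26 to 0.78, limma adjusted p = 0.964), and Plin4, Plin5, Cidec, Mogat1, Pparg and Cd36 differed by between -0.26 and 0.17.

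Acute-phase transcripts were high in 2 of the mutant livers on chow. The 10 acute-phase genes, which hepatocytes make in large amounts in inflammation, summed to between 3870 and 4420 in controls on chow, and to 10600, 85300, 4340 and 4570 in mutants on chow. On HFD they summed to 16800, 7250, 5270 and 4010 in controls and to 6760, 3980, 4320 and 4830 in mutants. Macrophage markers summed to 375 and 442 in mutant replicates 1 and 2, and to between 92.4 and 301 in the other 6 chow livers. Mutant replicate 2 held the lowest G0s2 (32.6) and Vldlr (1.49) of all 16 livers, whereas replicate 1 lay among the other chow livers for both genes (51.9 and 5.91). Mutant replicate 1 held the lowest Plin2 (174), Mogat1 (0.57) and Pparg (4.06) of all 16. Its Plin5 (22.8) was above the median of the 16 (19.7). Mutant replicate 2 held 278 for Plin2 and 7.04 for Pparg. Cidec was 4.15 and 4.35 in mutant replicates 1 and 2, near the lowest of all 16 (4.12). Without these 2 libraries the difference of Vldlr on chow was -0.19, that of G0s2 -0.31, that of Plin2 0.62 and that of Cidec 0.25 in place of -0.23. The median of the 9 genes was then 0.04, and again none passed. Without control HFD replicate 1, the diet difference of G0s2 was 0.70, that of Cd36 0.45 and that of Pparg 0.37, and the genotype difference of G0s2 on HFD was -0.66. The part of inflammation in these differences was not tested.

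The same question was asked of the genotypes on HFD. None of the 9 genes passed, against 2 of 12704 genes (0.0157%), and none had an unadjusted p below 0.05, as 8.6% of all genes did. The median difference was -0.03, beside 0.02 over all genes. Apart from G0s2, the differences lay between -0.30 and 0.07. On the log2(value + 1) scale 7 of 9 intervals lay within 1 log2 unit of 0, as did 87.6% over all genes.

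G0s2 was again lower in mutants, with a difference of -0.68 (-1.50 to 0.14, 0.625 of the control level, limma adjusted p = 0.599). This value differed with the numbering of the libraries. The library titles fall into a lower- and a higher-numbered series within each diet, and the labels do not say what the numbers mean. In the lower-numbered HFD series the 3 controls had 143, 177 and 156 against 64.3 in the single mutant, a difference of -1.28. In the higher-numbered series the single control had 86.9 and the 3 mutants 93.7, 68.7 and 124, a difference of 0.09. On chow the same split gave -1.27 (2 controls and 1 mutant) and -0.02 (2 controls and 3 mutants). With the series as a term in the fit, the HFD difference was -0.60.

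Cidec, the droplet fusion protein, was 12, 13.3, 5.75 and 7.62 in controls and 4.12, 8.28, 8.95 and 8.99 in mutants on HFD. The difference was -0.30 (-1.01 to 0.41, limma adjusted p = 0.763). It was -0.07 without mutant HFD replicate 1, and within the number series it was -1.08 in the lower and 0.18 in the higher.

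Plin5, which tethers droplets to mitochondria, differed between livers of low and high title numbers. In the lower-numbered HFD series its values were 23.3 in the mutant and 26.1, 18.9 and 20.5 in the controls. In the higher-numbered series they were 12.3 in the control and 12.4, 15.7 and 13.4 in the mutants. With genotype in the fit the higher- minus lower-numbered log2 difference of Plin5 was -0.74 (limma adjusted p = 0.0361). It was the only gene of the set past the threshold for this term, which 3197 of 12704 genes (25.2%) passed. On chow Plin5 was 28.4, 26.6 and 22.8 in the lower-numbered series and 15.2, 8.51, 21.5, 15.5 and 21.7 in the higher-numbered series. There the difference of -0.78 did not pass (limma adjusted p = 0.221), nor did any other gene (0 of 12704). The genotype difference of Plin5 on HFD was -0.24 (-0.92 to 0.43, limma adjusted p = 0.803) and turned to 0.13 with the series as a term. Since each series lies within one diet, diet and series cannot be told apart in any of the diet comparisons.

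The interaction asked whether HFD acted differently in mutants and controls. None of the 9 genes passed, none had an unadjusted p below 0.05, and of all genes 0 of 12704 (0%) passed and 4.21% had an unadjusted p below 0.05. Vldlr had the largest estimate, 0.68 (-0.39 to 1.75, limma adjusted p = 0.895). Its diet difference was -0.54 in controls and 0.14 in mutants. Plin5 had -0.41 (-1.36 to 0.54, limma adjusted p = 0.906). Of the 9 intervals 3 lay within 1 log2 unit of 0 on the log2(value + 1) scale, against 72.1% over all genes. The other 6 included a difference of response of 1 unit.

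The other genes of the pathway were read from 7 lists holding 58 genes, of which 56 were tested. For diet, 1 of them passed, and 12 were higher and 3 lower at an unadjusted p below 0.05. Over all genes 0.134% passed, 6.82% were higher at an unadjusted p below 0.05, and 14.1% lay below it in either direction. In each of the other 5 comparisons none passed, with between 4 and 13 of 56 at an unadjusted p below 0.05. The fewest, 4, were for the interaction and the most, 13, for diet in controls, beside 4.21% and 12.9% of all genes. Fabp2, a cytoplasmic fatty acid binding protein best known from the intestine, was the gene that passed. It was 112, 52.7, 69.9 and 65.6 in controls and 37.7, 36.5, 90.6 and 67.1 in mutants on chow. HFD livers held 145, 152, 154 and 135 in the control and 116, 170, 142 and 147 in the mutant group. Every HFD liver was above every chow liver, which held for 20 of 12704 genes (0.157%). Fabp2 rose 2.3-fold with HFD (log2 difference 1.20, 0.80 to 1.60, limma adjusted p = 0.0256). It remained past the threshold in 15 of 23 alternatives. It missed it without control chow replicate 2 or 4, mutant chow replicate 1, control HFD replicate 1, 2 or 3, or mutant HFD replicate 2 or 3, where the difference lay within its range of 0.94 to 1.32 over all alternatives and the limma adjusted p reached 0.0731.

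None of the other lists held a gene past the threshold, and their leading genes are given as values. Over all genes 46.7% had a diet difference above 0, with a median of -0.01. Among 11 other droplet proteins, 10 were above 0 with a median of 0.16. They were led by Fitm1 (0.76, limma adjusted p = 0.209), which helps droplets bud from the endoplasmic reticulum, and Hsd17b11 (0.55, limma adjusted p = 0.0971), a droplet dehydrogenase. Of the 6 lipolysis genes, 1 was above 0 and the median was -0.14, with Pnpla3 at -0.40 (limma adjusted p = 0.618) and Abhd5, the coactivator of ATGL, at -0.25 (limma adjusted p = 0.303). Triglyceride synthesis genes had a median of -0.03, with Lpin1 at -0.53 (limma adjusted p = 0.358) and Gpam at -0.52 (limma adjusted p = 0.328). Genes of fatty acid uptake and activation had a median of 0.10, Fabp2 included.

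Lipid transcription factors had a median of 0.05. The leading genes were Srebf1, which drives lipogenesis, at 0.58 (limma adjusted p = 0.181) and Cebpa at 0.38 (limma adjusted p = 0.267). Genes of VLDL assembly, by which the liver exports triglyceride, had a median of 0.12, with Apoc3 at 0.28 (limma adjusted p = 0.481) and Apob at 0.20 (limma adjusted p = 0.337). Fasting genes and targets of PPARα had a median of 0.08 and the widest range. Pdk4, which spares glucose in fasting, stood at -0.77 (limma adjusted p = 0.313). Cyp4a14, a fatty acid hydroxylase, had an averaged difference of 1.14 (limma adjusted p = 0.544) from unlike values in the genotypes, -0.33 in controls and 2.61 in mutants, with an interaction estimate of 2.93 (-0.53 to 6.40, limma adjusted p = 0.895). In mutants on chow Cyp4a14 was 5.97 and 1.61 in replicates 1 and 2, the libraries with high acute-phase sums, and 299 and 280 in the remaining livers, against 208 to 608 in controls on chow, 210 to 441 in controls on HFD and 167 to 307 in mutants on HFD.

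**Figure D3:**
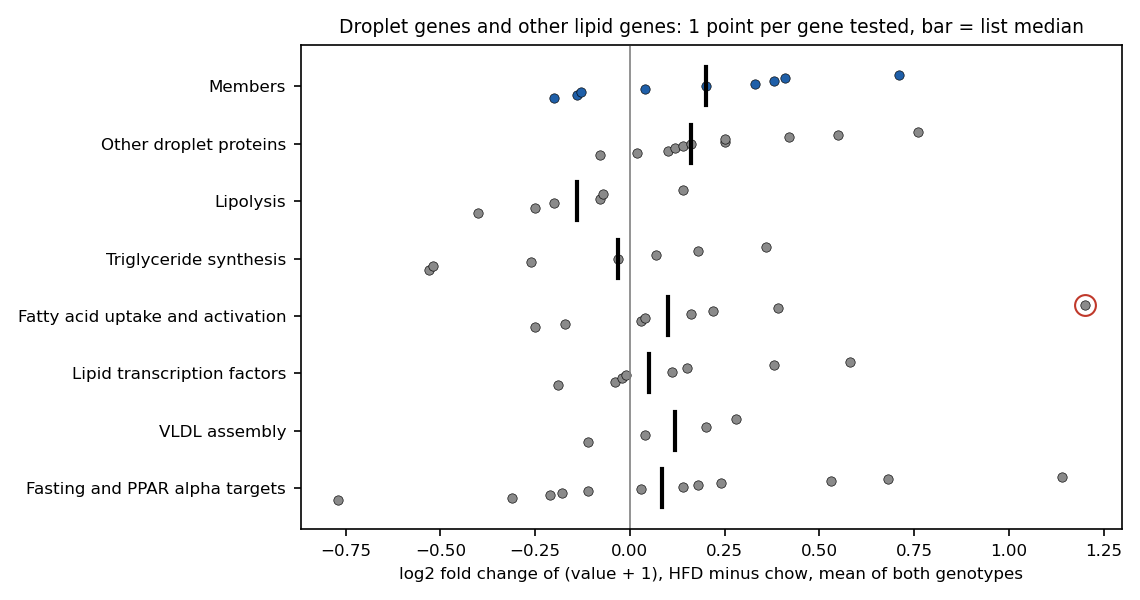
Diet differences (HFD minus chow, mean of both genotypes, log2(value + 1) scale) of the 9 droplet genes and of 7 other lipid lists, with 1 point per gene tested and a bar at each list median. The ring marks Fabp2 at 1.20, the single gene here past the adjusted threshold.

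The 9 genes were compared with each other across the 16 livers, as a description. Libraries share groups, diets and number series, so these coefficients are not independent of them. Of 36 pairs, 32 had a Pearson coefficient above 0 and the median was 0.17, or 0.27 once group means were removed. Mogat1 and G0s2 were the closest pair, at 0.74 (Spearman 0.76), at 0.80 without the 2 libraries farthest from the median and at 0.71 within groups. The neighbours Plin4 and Plin5 followed at 0.67 (Spearman 0.58), at 0.48 without the 2 farthest libraries and at 0.78 within groups. Pparg and Cd36 stood at 0.53 (Spearman 0.61), which was 0.32 within groups. Plin2, the most abundant, was close to neither of the other perilipins of the set, at 0.08 with Plin4 and 0.14 with Plin5.

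**Figure D4:**
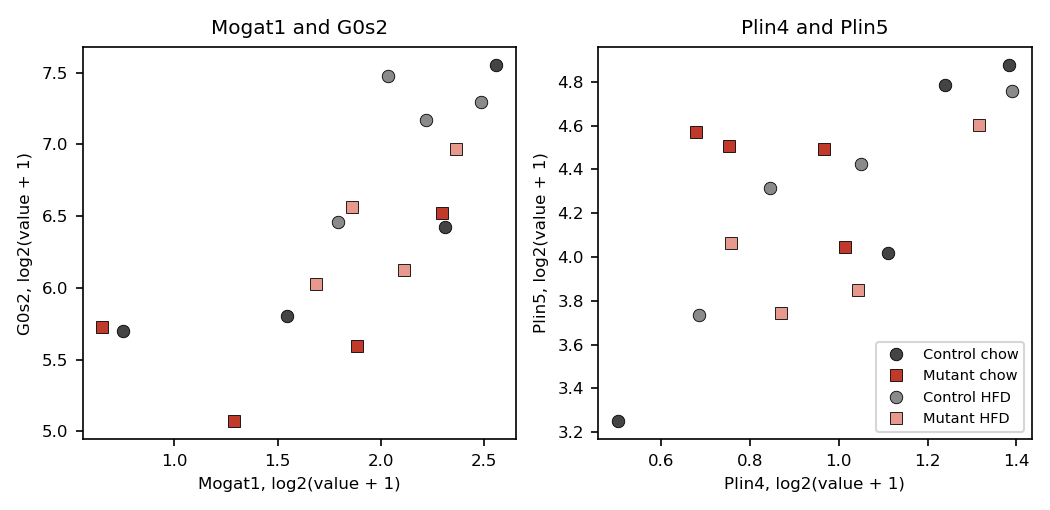
Levels of Mogat1 against G0s2 and of Plin4 against Plin5 on the log2(value + 1) scale, with 1 point per liver, circles for controls and squares for mutants. Pearson coefficients over the 16 livers were 0.74 and 0.67.

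A mean z-score over the 9 genes placed whole livers on a common scale. It was lowest in control chow replicate 4 (-1.14), mutant chow replicate 1 (-1.08) and mutant chow replicate 2 (-0.77), and highest in control HFD replicate 2 (0.65), control HFD replicate 3 (0.57) and control chow replicate 1 (0.56). Control livers on chow ranged from -1.14 to 0.56, mutant livers on chow from -1.08 to 0.38, and HFD livers of both genotypes from -0.27 to 0.65. The genes outside the set that followed this score most closely over the 16 livers were Mrpl48 and Slc25a10 (Pearson 0.85 for both), Gm3788 and Ech1 (0.84 for both), Grpel1 (0.83) and Slc17a1 (0.81). Singly, the closest companions were Sgsm3 for Plin4 (0.89), Blcap for Plin5 (0.88), Mrps18c for G0s2 and Car3 for Vldlr (0.87 for both), Cpt2 for Mogat1 and Cyp2e1 for Pparg (0.82 for both), Spata2l for Plin2 (0.81), Polg2 for Cd36 (0.80) and 9130230L23Rik for Cidec (0.77). Each is the highest coefficient over all genes tested outside the set and is given as a description. Spearman coefficients ran from 0.56 (Ech1) to 0.88 (Grpel1) with the score and from 0.59 (Cpt2) to 0.93 (Sgsm3) with single genes. Without the 2 libraries farthest from the median, Pearson coefficients ran from 0.69 (Slc17a1) to 0.91 (Slc25a10) and from 0.62 (Cyp2e1) to 0.91 (Sgsm3).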

How the data were processed

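Total RNA was purified from liver, and barcoded libraries were prepared with the NEBNext Ultra II kit and sequenced on a NovaSeq instrument by a sequencing provider. The authors assigned reads to mouse transcripts of mm10 with kallisto in gene mode and tested genes with sleuth. Versions, annotation release and filters were not given in the sources used here. The deposited signal is in TPM adjusted by size factors for each gene, as inferred from library totals that differ. kallisto divides reads among similar transcripts by estimation.

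From these values log2(value + 1) was computed. Genes had to reach 1 in at least 4 libraries. A single limma fit (version 3.58.1, R version 4.3.3) of 4 group means over all 16 libraries, with a variance trend and 12 residual degrees of freedom, gave 6 contrasts, and p-values were adjusted over 12704 genes by Benjamini-Hochberg (threshold 0.05). The code was tested on simulated data. The genotype and treatment labels gave the groups. Replicates were numbered in sample order, since no label numbers them. Intervals are 95%.

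The genes of the set and the other lists were chosen with earlier results of these data known, so lists were described by counts and medians and not tested. All genes of the set were named. From each further list, genes past the threshold were named, or otherwise the 2 with the largest averaged diet difference, with the 6 genes most like the set's mean z-score and the 1 most like each gene. Gene positions came from GENCODE M21 (GRCm38), and promoters from RefSeq, matched by symbol for all 9 genes. Alternatives were another pseudocount, other filters, median-of-ratios scaling, library weights, only the groups compared, the title number series as a term and leaving out each library. Leaving out mutant chow replicates 1 and 2, and quantile normalisation, were added after seeing the data.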

Additional observations from a re-analysis of the deposited data

Results flagged for a closer look

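Cidec in mutant HFD replicate 1 was 4.12, far from the other 3 mutants on HFD, which held between 8.28 and 8.99. The gap to the nearest of them was 0.855 of the range of the group, above Dixon's 95% critical value for 4 samples. It was 1 such group among the 36 groups of the 9 genes examined, and chance gives about 1 in 20. This library is also the only mutant of the lower-numbered HFD series.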

How the results depend on the processing

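No paired analysis was run, since the labels name no pairs of libraries. Over 54 fold changes (9 genes in 6 comparisons) the alternatives gave 1293 values, of which 1292 stayed on the same side of the threshold and 76 changed sign, all from estimates of at most 0.48 in size. The exception was Cd36 in controls with library weights (0.56, limma adjusted p = 0.0414), which made the count of the set 1 in place of 0. Without mutant chow replicates 1 and 2 the sign turned for Cidec by diet (-0.04), for Cidec in mutants by diet (-0.32) and by genotype on chow (0.25), and for Mogat1 in mutants by diet (-0.08) and by genotype on chow (0.30). Among the other sign changes were those of Plin4 by diet (from -0.05 to 0.09 with single libraries left out) and of Plin5 by genotype on HFD with the series term (0.13). The median of the set ranged from 0.12 to 0.34 for diet and from -0.30 to 0.02 for genotype on chow with single libraries left out, and was 0.02 and 0.04 without mutant chow replicates 1 and 2. Its median interaction ranged from -0.14 to 0.23 with single libraries left out, the latter without mutant chow replicate 3. Without mutant chow replicates 1 and 2 the median interaction was -0.28 in place of -0.04, and the median for diet in mutants was -0.08 in place of 0.17. Counts over all genes depended on the setting. With library weights they were 680 for diet, 2264 for the diet in controls, 9 for that in mutants, 6 for genotype on chow and 3926 for genotype on HFD. With only the groups compared they were 4 for the diet in controls, 1 for that in mutants, 6 for genotype on chow and 1 for genotype on HFD. For genotype on chow the count was 1 with the filter at 5 and 1 with the series term. Without mutant chow replicates 1 and 2 it was 3 for the diet in controls and 2 for that in mutants. With single libraries left out the counts ran from 0 to 398 for diet and from 0 to 925 for diet in controls, both highest without control HFD replicate 4, from 0 to 2 for diet in mutants, from 1 to 14 for genotype on chow and from 2 to 141 for genotype on HFD, highest without mutant HFD replicate 1. The cause of these changes was not tested. Depth is unknown for these values, and the 4 mice a group limit the precision.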
